A study of Mus musculus with 96 samples.

Results

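The genes that write, copy and remove DNA methylation were followed in mouse embryonic stem cells (ESCs) in which the Polycomb protein RYBP or proteins studied with it had been altered. They were chosen by name: Dnmt1, Dnmt3a, Dnmt3b, Dnmt3l, Uhrf1, Tet1, Tet2 and Tet3, which are 8 of the 37620 genes in the count tables. All 8 were found by Ensembl identifier in all 7 RNA-seq tables, each of which was analysed on its own. In the mm9 genome the maintenance genes are Dnmt1 (chr9:20711650-20757317, minus strand) and Uhrf1 (chr17:56442744-56462909, plus strand). The DNMT3 genes lie at chr12:3806007-3914443 (Dnmt3a), chr2:153475186-153513466 (Dnmt3b) and chr10:77504692-77526367 (Dnmt3l), all on the plus strand. The TET genes lie on the minus strand at chr10:62267318-62361866 (Tet1), chr3:133126643-133207354 (Tet2) and chr6:83312367-83391672 (Tet3). At the 8 loci, 361 of the 316354 ChIP-seq peaks in 14 lists were found.

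All cells were ESCs grown with serum and LIF, and every group held 2 RNA libraries, 26 libraries in total. The R7.15 line carries floxed Rybp and was either left untreated (Rybp+/+) or given 5 µM 4-OHT for 4 days (Rybp-/-). R1 cells received an empty vector (shEV) or a hairpin against Rybp (shRybp) or against Wdr5 (shWdr5), a Stat3 knockdown of R1 cells (shStat3) was used for ChIP-seq only, and the shRybp and shWdr5 comparisons used the same shEV libraries. R1 cells labelled WT ESC were compared with cells labelled TF-AA mutation, for which the labels give only that name. In the phase-disruption experiment, RYBPfl/fl Rosa26::CreERT2 cells of the R7.15 line were treated with 4-OHT, so that both groups carried the deletion of endogenous Rybp, and expressed either full-length RYBP (WT.RYBP) or RYBP lacking the 21aa segment (RYBP phase disruption). J1 cells with a doxycycline-driven Rybp transgene (Tet on.RYBP) were given vehicle or DOX. The rTRS line, in which doxycycline is to induce Rybp and Stat3, was compared without (NTC) and with DOX. The labels give the RNA samples of this line as rTRS and its ChIP-seq samples as R1 with the same Rybp and Stat3 integration, and both are called rTRS here. The labels do not say whether the 2 libraries of a group came from separate cultures, so the p-values measure only the spread between these libraries.

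Methyl groups on cytosine of CG dinucleotides are copied after replication by DNMT1, which is brought to hemimethylated sites by UHRF1. They are placed anew by DNMT3A and DNMT3B, with DNMT3L as a cofactor that has no catalytic activity of its own. TET1, TET2 and TET3 oxidise 5-methylcytosine, which leads to its loss, and ESCs in serum are known to hold both activities together. RYBP is a subunit of variant Polycomb repressive complex 1 (PRC1), whose RING1B subunit ubiquitinates histone H2A; WDR5 is a core subunit of the complexes that methylate H3K4, and STAT3 carries the LIF signal.

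The gene starts differed widely in CG content, and CG-rich promoters are where PRC1 and H3K4 methyltransferases are known to gather. Within 300 bases around the annotated gene start (250 before to 50 after), Tet2 held 57 CG dinucleotides, more than 99.8% of 22333 protein-coding promoters, whose median was 11. Dnmt3b held 31, Tet3 held 22 and Dnmt1 held 21, whereas Uhrf1 stood at the median with 11. Tet1 held 5, Dnmt3l 3 and Dnmt3a 2. The 250 bases directly upstream of the start are shown for a CG-rich pair, Dnmt3b and Tet2, and for the CG-poor Tet1, as examples of the range of CG content and not as a rule for the members. They were read 5′ to 3′ on the gene's strand from the mm9 (NCBIM37) genome, with every CG in capitals.
Dnmt3b, chr2:153474936-153475185, plus strand: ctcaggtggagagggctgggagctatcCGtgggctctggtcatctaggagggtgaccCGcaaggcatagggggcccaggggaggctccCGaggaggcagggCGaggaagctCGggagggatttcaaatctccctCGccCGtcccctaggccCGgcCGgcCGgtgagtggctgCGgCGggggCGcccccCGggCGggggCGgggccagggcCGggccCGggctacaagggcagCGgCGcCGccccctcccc
Tet2, chr3:133207355-133207604, minus strand: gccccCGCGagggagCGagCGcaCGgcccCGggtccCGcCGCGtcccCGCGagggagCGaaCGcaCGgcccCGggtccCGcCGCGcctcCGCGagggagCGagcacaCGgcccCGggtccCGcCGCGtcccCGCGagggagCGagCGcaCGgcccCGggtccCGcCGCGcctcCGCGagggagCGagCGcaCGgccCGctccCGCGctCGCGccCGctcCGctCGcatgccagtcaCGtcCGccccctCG
Tet1, chr10:62361867-62362116, minus strand: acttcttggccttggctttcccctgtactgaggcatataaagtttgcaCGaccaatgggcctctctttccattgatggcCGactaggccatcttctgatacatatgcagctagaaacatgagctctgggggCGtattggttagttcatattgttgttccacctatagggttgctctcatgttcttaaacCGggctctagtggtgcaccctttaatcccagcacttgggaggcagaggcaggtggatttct

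The Dnmt3b window held 21 CG and was overlapped by peaks in all 4 RING1B lists, both WDR5 lists and 1 of the 4 STAT3 lists. The Tet2 window held 51 CG and lay under peaks of 3 RING1B lists, 3 STAT3 lists and both WDR5 lists. At the annotated Tet1 start, with 4 CG, no RING1B, STAT3 or WDR5 peak overlapped the window. An H3K4me3 peak overlapped it in Rybp+/+ only, but overlapped the other windows in both conditions. The strongest H3K4me3 peak of Tet1 in Rybp+/+ was centred 11506 bases inside the gene, so this window is not its main marked site. H3K27ac peaks from both conditions overlapped all 3 windows. Dnmt3a, with the fewest CG at its start, had RING1B peaks in all 4 lists and WDR5 peaks in both lists just downstream of the start, where the central 300 bases of STAT3 peaks held 29 to 53 CG.

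The order of the transcripts was first set in untreated or control cells, as RPKM, which is CPM divided by the deposited gene length in kilobases. In Rybp+/+ cells Dnmt3l stood highest at 188 and 192 RPKM, followed by Uhrf1 at 148 in both libraries. Dnmt3b came next at 97.2 and 98.4, then Dnmt1 at 76.0 and 76.7. Tet1 lay at 32.0 and 32.6, Tet2 at 11.0 and 11.1 and Dnmt3a at 10.6 and 10.7 RPKM. Tet3, the TET enzyme best known from the zygote and from neurons, was the lowest member at 1.05 and 1.10 RPKM. It held the last place in every control group, with a range of 0.726 to 1.85.

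The order differed between control groups, also within the R1 line. There Dnmt3a (24.8 and 25.1 RPKM) stood above Tet2 (10.8 and 11.3) in shEV. In WT ESC Tet2 (16.5 and 18.1) stood above Dnmt3a (9.48 and 9.56). In R1 shEV cells Uhrf1 led at 128 and 129 RPKM, Dnmt1 followed at 93.3 and 95.9, and Dnmt3l came next at 87.0 and 88.5. Dnmt3b, at 26.6 and 27.2, stood close to Dnmt3a, at 24.8 and 25.1, although the libraries of the genes did not overlap. In J1 vehicle cells Dnmt3l led again (154 and 161) and Tet1 reached 67.9 and 73.2 RPKM, while Tet2 (34.5 and 36.7) could not be ordered against Dnmt3b (34.8 and 35.2) because their libraries overlapped. The only other neighbours whose libraries overlapped were Dnmt3l (57.0 to 60.3) and Tet1 (54.7 to 61.5) in WT ESC. Across all control groups Dnmt3b ranged from 21.6 to 98.4, Dnmt3l from 40.2 to 192, and Dnmt3a from 5.30 to 25.1 RPKM. The tables were normalized separately and came from several lines, some of them shared (R1 for shEV and WT ESC, R7.15 for Rybp+/+ and WT.RYBP). These ranges were therefore not tested.

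**Figure D1:**
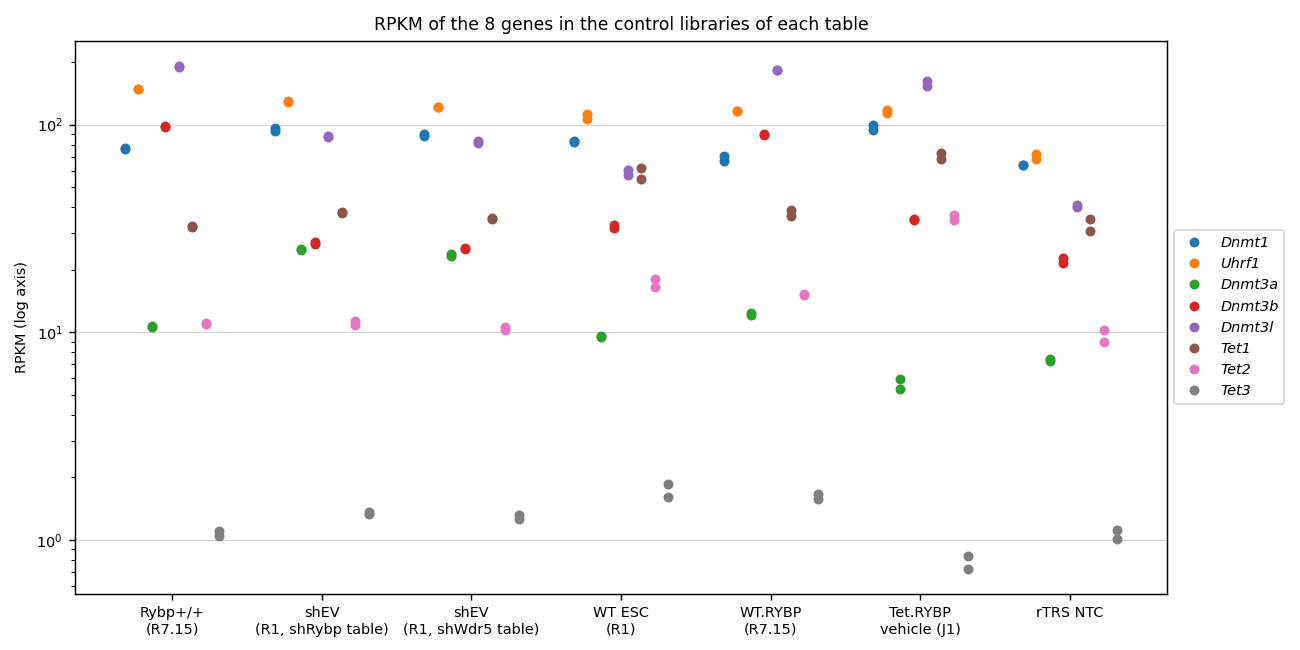
Level of each member in the control libraries of the tables (RPKM, log axis); each point is 1 library, colours mark the members and columns the control groups. Tet3 lies lowest in every group, between 0.726 and 1.85 RPKM, while Dnmt3b and Dnmt3l spread over 21.6 to 98.4 and 40.2 to 192 RPKM.

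Libraries held 14512857 to 81049618 counts on genes, and the members had 198 (Tet3) to 50660 counts per library. The shEV libraries held 41697967 and 38961268 counts on genes in the shRybp table but 21241931 and 19731613 in the shWdr5 table. The median ratio per gene was 1.96 and 1.97. Counts outside genes were 22.8% and 22.1% against 56.3% and 56.4%. The same libraries were thus counted differently, for a reason not given in the sources used here. The targeted genes checked the labels first, in CPM (read counts scaled to library size with TMM factors). Rybp fell from 110 CPM in both Rybp+/+ libraries to 24.8 and 25.0 in Rybp-/- (log2 fold change -2.15), and from 85.7 and 86.4 to 35.7 and 36.5 in shRybp (-1.25). Wdr5 fell from 350 and 343 to 60.0 and 58.1 in shWdr5 (-2.55). In Tet on.RYBP cells Rybp rose from 135 and 145 to 521 and 535 (log2 fold change 1.91). In the rTRS line Rybp stood at 113 and 110 CPM in NTC and at 102 and 99.7 in the libraries labelled DOX, which goes against that label, and Stat3 rose only from 159 and 172 to 191 and 188 (log2 fold change 0.20, adjusted p = 0.026). Those libraries are therefore called "labelled DOX" throughout. The column of DOX replicate 2 also carries a prefix in its header (S5) unlike that of the other 3 columns, and the sources used here do not say whether transgene reads are counted to Rybp.

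Deletion of Rybp was followed by lower transcripts of the methylating enzymes. All 3 DNMT3 genes fell to between 60.4% and 74.4% of the control level, Dnmt1 and Uhrf1 fell by less, and Tet1, Tet2 and Tet3 did not pass. Of the 8 members 5 fell, where 22.7% of 16955 tested genes fell, 22.8% rose and 45.5% changed in either direction (edgeR quasi-likelihood test, Benjamini-Hochberg adjusted p under 0.05). The groups of 7 members did not overlap, which held for 70.8% of tested genes. The median log2 fold change of the members was -0.18, against 0.00 for all genes.

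Dnmt1 stood at 404 and 400 CPM in Rybp+/+ and at 356 and 345 in Rybp-/- (log2 fold change -0.20 ± 0.031 SE, adjusted p = 2.6e-06). Uhrf1 went from 628 and 629 to 564 and 560 CPM (-0.16 ± 0.028, adjusted p = 1.5e-05). Both maintenance genes had non-overlapping groups and small changes. Dnmt3a, which has a long and a short ESC isoform that these gene counts do not separate, had 177 CPM in both Rybp+/+ libraries and 106 and 108 in Rybp-/- (-0.73 ± 0.036, adjusted p = 1.5e-17). Dnmt3b, the main de novo enzyme of the peri-implantation embryo, went from 496 and 502 to 322 and 318 (-0.64 ± 0.030, adjusted p = 3.7e-18). Dnmt3l went from 573 and 563 to 417 and 427 (-0.43 ± 0.029, adjusted p = 8e-14). For each of these 3 genes both Rybp-/- libraries lay far below both control libraries, and the replicates of a group differed by little. Tet1 overlapped between groups, at 479 and 471 against 466 and 473 CPM, with a 95% interval of the log2 fold change from -0.08 to 0.04. Tet2 stood at 102 and 101 against 95.4 and 96.2 (log2 fold change -0.08, interval -0.16 to -0.0035, adjusted p = 0.082) and Tet3 at 11.6 and 12.2 against 13.7 and 12.5 (0.14, adjusted p = 0.2).

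Marker genes of other states moved in the same libraries. The summed level of the primed epiblast list went from 78.8 to 83.8 CPM in Rybp+/+ to 27.7 to 28.3 CPM in Rybp-/-, with 4 of 6 tested genes lower. The ESC identity list went from 3469 to 3549 CPM to 4093 to 4112 CPM, with 6 of 8 higher and 1 lower. The fibroblast (feeder) list rose in 7 of 8 genes, from a sum of 61.7 to 62.6 CPM to 124 to 129 CPM. All 5 tested genes of the 2-cell-like list rose, from a sum of 0.186 to 0.216 CPM to 49.3 to 50.2 CPM, as did all 8 of the trophectoderm list, from 157 to 160 CPM to 192 to 200 CPM, and 3 of 7 of the primitive endoderm list. No marker of these lists was at 0. Their part in the member changes was not tested, and in such bulk samples fewer cells of a type and less RNA per cell cannot be told apart.

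**Figure D2:**
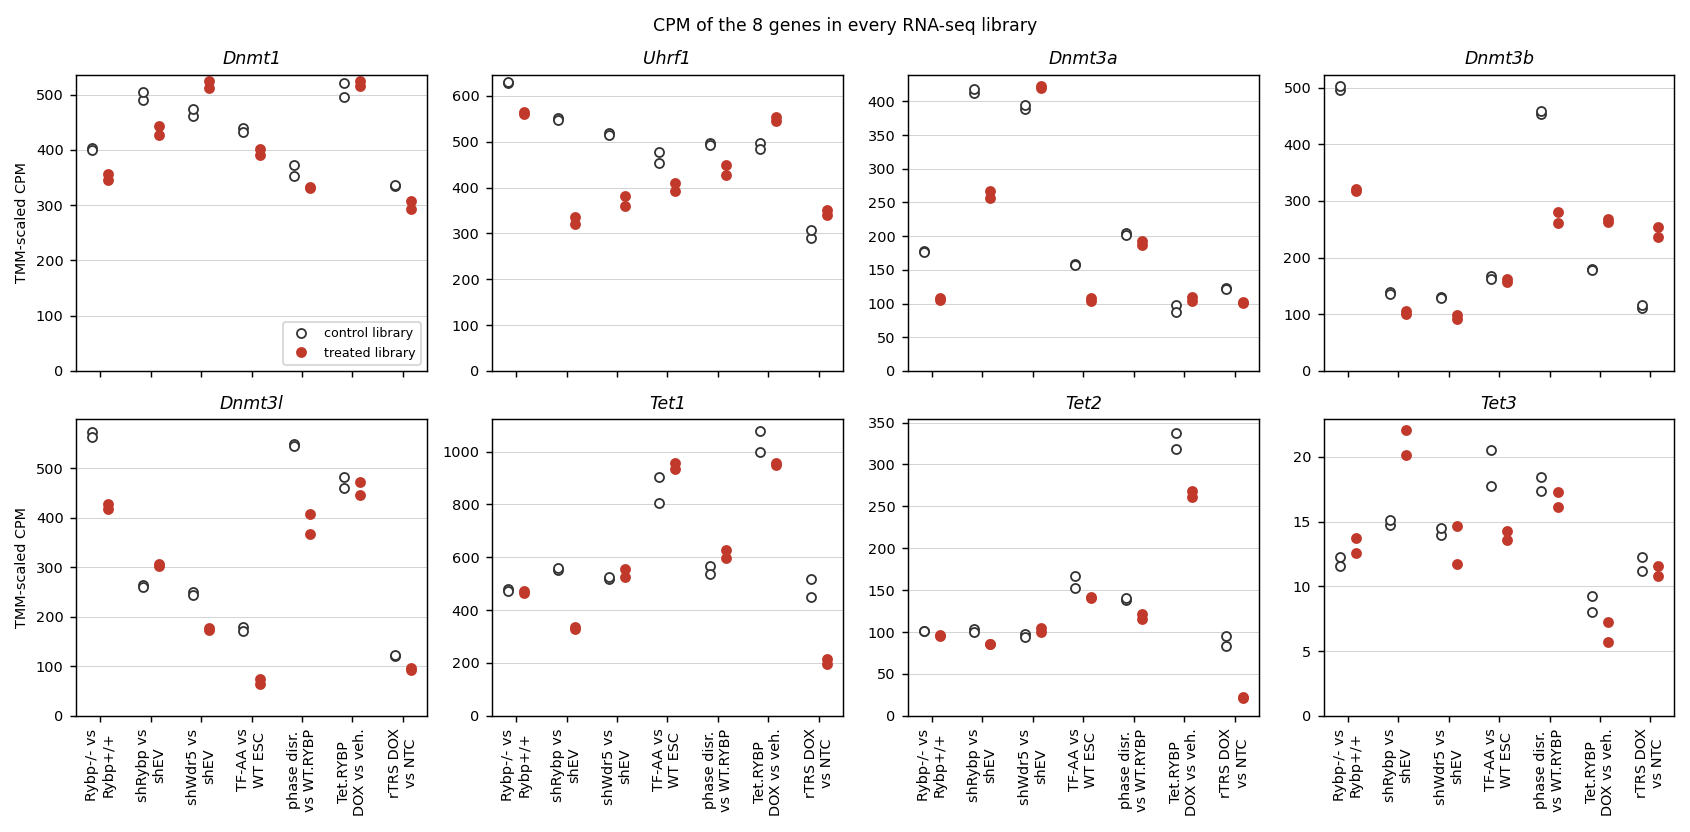
TMM-scaled CPM of each member in every RNA library, 1 panel per member with an axis from 0; columns are the comparisons, open points control libraries and filled points treated ones. Dnmt3b stands at 496 and 502 CPM in Rybp+/+ against 322 and 318 in Rybp-/-, and at 110 and 116 in rTRS NTC against 237 and 255 in the libraries labelled DOX.

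Knockdown of Rybp in R1 cells moved all 8 members. Uhrf1, Tet1 and Dnmt3a fell most, Dnmt3b, Tet2 and Dnmt1 fell by less, and Dnmt3l and Tet3 rose. Thus 6 members fell and 2 rose, where 26.0% of 16538 tested genes fell and 26.8% rose (52.7% together), and the groups of all 8 did not overlap, which held for 75.6% of the tested genes. The median log2 fold change was -0.32 for the members and 0.02 for all genes.

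Uhrf1 went from 551 and 546 CPM in shEV to 321 and 335 in shRybp (log2 fold change -0.74 ± 0.043, adjusted p = 6.9e-11), a 1.67-fold lower level. Dnmt1, from 491 and 505 to 428 and 444, fell by 0.19 on the log2 scale (adjusted p = 0.00086). The 95% interval of Uhrf1, from -0.83 to -0.65, did not reach that of Dnmt1, from -0.28 to -0.10. Dnmt3a went from 412 and 418 to 257 and 266 (-0.67 ± 0.044, adjusted p = 4.1e-10). Dnmt3b went from 139 and 136 to 106 and 101 (-0.40 ± 0.052, adjusted p = 2.6e-06). Dnmt3l, from 264 and 260 to 307 and 303, rose by 0.22 on the log2 scale (SE 0.044, adjusted p = 0.00037), the direction opposite to that in Rybp-/- cells. Tet1, the most abundant TET transcript of these cells, fell from 551 and 558 to 328 and 337 (-0.74 ± 0.042, adjusted p = 5.9e-11). Tet2 fell from 104 and 99.5 to 85.9 and 85.5 (-0.25, adjusted p = 0.00073) and Tet3 rose from 14.7 and 15.1 to 20.1 and 22.1 (0.50 ± 0.094, adjusted p = 0.00019). When libraries were scaled by their totals alone, the median of all genes moved by 0.16 on the log2 scale, higher genes made up 71.2% of calls in place of 50.8%, and Dnmt1 (-0.03) and Tet2 (-0.09) no longer passed.

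The trophectoderm list moved beside these changes, with 7 of 8 genes higher and its sum going from 117 to 128 CPM to 329 to 344 CPM. The 2-cell-like list rose in 5 of 5 tested genes, from a sum of 43.7 to 45.3 CPM to 194 to 204 CPM, and the primitive endoderm list in 5 of 7 with 1 lower, from 17.3 to 21.1 CPM to 31.3 to 33.4 CPM. The fibroblast list rose in 3 of 4 tested genes, from 21.2 to 22.3 CPM to 34.4 to 34.5 CPM with Dcn and Lum at 0, and the primed epiblast list in 1 of 5. In the ESC identity list 4 of 8 genes fell and 2 rose. Their part in the member changes was not tested.

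Knockdown of Wdr5, set against the same shEV libraries, gave another pattern. Uhrf1, Dnmt3l and Dnmt3b fell, Dnmt1 and Dnmt3a rose slightly, and no TET gene passed. This made 3 lower and 2 higher members, where 31.5% of 15143 tested genes fell and 31.5% rose (63.0% together), and 7 members had groups that did not overlap (81.0% of tested genes). In CPM of this table, Uhrf1 went from 519 and 515 to 360 and 382 (log2 fold change -0.48 ± 0.044, adjusted p = 1.9e-09). Dnmt3l went from 249 and 245 to 177 and 174 (-0.49 ± 0.046, adjusted p = 2.8e-09). Dnmt3b went from 130 and 128 to 99.3 and 91.7 (-0.43 ± 0.054, adjusted p = 2.8e-07). Groups of these 3 genes did not overlap. Dnmt1 stood at 462 and 475 against 512 and 525 CPM (0.15, adjusted p = 0.004), and Dnmt3a at 389 and 394 against 423 and 420 (0.11, adjusted p = 0.033), and without shWdr5 replicate 2 neither passed (adjusted p = 0.0755 and 0.131), which left 3 members. The call of Dnmt3a was also lost without shEV replicate 1 (adjusted p = 0.0641), without shWdr5 replicate 1 (0.195), by DESeq2 (0.0589) and with total counts alone (0.0653). Tet1 had 517 and 524 CPM in shEV and 555 and 526 in shWdr5, with an interval of the log2 fold change from -0.03 to 0.14. Side by side, then, Tet1 had a log2 fold change of -0.74 in shRybp and 0.05 in shWdr5, and Dnmt3l of 0.22 and -0.49. The shared shEV libraries were counted differently for these comparisons, and the difference itself was not tested. In the same shWdr5 libraries the primed epiblast list had 3 higher and 1 lower of 5 tested genes, its sum going from 77.6 to 91.9 CPM to 141 to 145 CPM with Cer1 at 0. The trophectoderm list had 5 of 7 higher (111 to 121 CPM against 266 to 277 CPM), the 2-cell-like list 3 of 4 lower (41.3 to 42.3 CPM against 16.8 to 17.2 CPM), and the ESC identity list 5 lower and 3 higher of 8. The primitive endoderm list had 4 higher and 1 lower of 7 (17.1 to 20.5 CPM against 36.4 to 36.7 CPM), and the fibroblast list 1 higher and 2 lower of 4. Their part in these changes was not tested.

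Loss of the 21aa segment of RYBP, in cells without endogenous Rybp, mainly lowered Dnmt3b and Dnmt3l. Of the members 5 fell and 1 rose, where 17.0% of 14575 tested genes fell and 16.1% rose (33.0% together), and the groups of all 8 did not overlap (64.9% of tested genes). Dnmt3b went from 454 and 459 CPM in WT.RYBP to 261 and 280 in RYBP phase disruption (log2 fold change -0.76 ± 0.046, adjusted p = 4e-15). Dnmt3l went from 549 and 544 to 368 and 408 (-0.49 ± 0.046, adjusted p = 1.8e-10). For both genes the mutant libraries lay well below the WT.RYBP libraries. Dnmt3a stood at 205 and 202 against 187 and 193 and did not pass (-0.10, adjusted p = 0.12). Uhrf1 fell from 497 and 492 to 427 and 450 (-0.17, adjusted p = 0.0019) and Tet2 from 138 and 140 to 122 and 115 (-0.23, adjusted p = 0.00088). Dnmt1 (352 and 372 against 333 and 331, adjusted p = 0.032) and Tet1 (567 and 536 against 626 and 598, log2 fold change 0.15, adjusted p = 0.007) passed, but without WT.RYBP replicate 2 neither did (adjusted p = 0.38 and 0.261). By DESeq2 Dnmt1 was lost too (adjusted p = 0.0734), which left 5 members. With total counts alone Dnmt1 was also lost, and higher genes made up 61.7% of calls in place of 48.7%. Rybp transcripts, transgene included, stood at 749 and 753 against 661 and 625 CPM (log2 fold change -0.22, adjusted p = 6.8e-05). These counts may also hold reads of the deleted endogenous gene and do not measure the transgene alone. The primed epiblast list fell in 4 of 5 tested genes, from a sum of 78.0 to 78.8 CPM to 31.7 to 35.2 CPM, with Cer1 at 0. The 2-cell-like list rose in 5 of 5 tested genes, from a sum of 45.1 to 49.2 CPM to 418 to 438 CPM, and the trophectoderm list in 6 of 7, from 381 to 393 CPM to 511 to 536 CPM. The fibroblast list fell in 3 of 8 (445 to 453 CPM against 361 to 387 CPM), and the ESC identity list had 2 higher and 2 lower of 8. Their part in these changes was not tested.

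In the TF-AA mutation, Dnmt3l showed the largest change of the 4 DNMT transcripts in any of the comparisons. It went from 180 and 170 CPM in WT ESC to 74.6 and 63.3, a 2.54-fold lower level (log2 fold change -1.34 ± 0.087, adjusted p = 3.3e-11). Dnmt3a went from 159 and 158 to 109 and 104 (-0.57 ± 0.078, adjusted p = 4.2e-06). Neither gene's groups overlapped. Dnmt3b, by contrast, stood at 167 and 162 against 157 and 162 CPM, with an interval from -0.21 to 0.11. Uhrf1 (477 and 453 against 410 and 391, adjusted p = 0.031) and Tet3 (17.8 and 20.5 against 13.6 and 14.2, log2 fold change -0.46, adjusted p = 0.0082) also fell, but without TF-AA replicate 1 neither passed (adjusted p = 0.187 and 0.0827). Thus 4 of 8 members fell, where 16.1% of 14456 tested genes fell and 14.4% rose (30.5% together), and without that library 2 members passed. The groups of all 8 did not overlap, although those of Dnmt3b nearly touched (63.7% of tested genes had no overlap). Tet1, at 805 and 905 against 933 and 958 CPM, and Tet2, at 152 and 167 against 142 and 140, did not pass (adjusted p = 0.15 and 0.1), though Tet1 did without WT ESC replicate 2 (adjusted p = 0.00396) and Tet2 without WT ESC replicate 1 (adjusted p = 0.0113). The 2-cell-like list rose in 5 of 5 genes in the same libraries, from a sum of 0.197 to 0.811 CPM to 47.5 to 47.9 CPM. The trophectoderm list rose in 4 of 4 tested genes (71.9 to 72.3 CPM against 94.4 to 100.6 CPM). The fibroblast list rose in 3 of 4 (17.1 to 17.4 CPM against 30.1 to 31.0 CPM, with Col3a1, Dcn and Lum at 0), the primitive endoderm list in 2 of 5 (11.6 to 11.8 CPM against 20.8 to 21.1 CPM) and the ESC identity list in 3 of 8. The part of these lists in the member changes was not tested.

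Overexpression of Rybp in J1 cells was followed by fewer changes in the transcriptome as a whole, where 3.63% of 14937 tested genes rose and 2.39% fell (6.02% together). Among the members 2 rose and 1 fell, and 6 had groups that did not overlap (48.1% of tested genes). Dnmt3b rose from 179 and 177 CPM to 262 and 268, a 1.48-fold higher level (log2 fold change 0.57 ± 0.053, adjusted p = 2.5e-09). Tet2 fell from 318 and 338 to 268 and 261 (-0.31 ± 0.051, adjusted p = 9e-05). Both DOX libraries lay outside the range of the vehicle libraries for these genes. Uhrf1 passed narrowly, from 498 and 484 to 554 and 545 (0.16, adjusted p = 0.02), but not without DOX replicate 1 (adjusted p = 0.451) or DOX replicate 2 (adjusted p = 0.328), which left 2 members. Without vehicle replicate 1, on the other hand, 5 members passed. Dnmt3a (98.6 and 88.2 against 109 and 104, adjusted p = 0.11), Tet1 (999 and 1080 against 955 and 951, adjusted p = 0.069) and Tet3 (9.22 and 8.05 against 7.23 and 5.68, adjusted p = 0.19) did not pass. Dnmt1 and Dnmt3l had overlapping groups and log2 fold changes of 0.03 and -0.04. Of the 2-cell-like list 2 of 3 tested genes rose, its sum going from 0.277 to 0.811 CPM to 4.61 to 5.71 CPM, and of the trophectoderm list 1 of 5 rose (47.4 to 52.0 CPM against 58.0 to 60.5 CPM). The summed ESC identity list stood at 5437 to 5466 CPM with vehicle and at 5347 to 5353 CPM with DOX. The part of these lists in the member changes was not tested.

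The rTRS line held the largest member change of the comparisons, that of Tet2, which was lower with Tet1 in the libraries labelled DOX while Dnmt3b was higher. Of the 8 members 5 fell and 2 rose, where 20.4% of 16291 tested genes fell and 23.0% rose (43.4% together), and 7 had groups that did not overlap (71.3% of tested genes). Tet2 had 82.8 and 94.7 CPM in NTC and 21.8 and 22.9 in the libraries labelled DOX, a 3.97-fold lower level (log2 fold change -1.99 ± 0.088, adjusted p = 3.1e-09). Tet1 had 451 and 519 against 196 and 214, a 2.36-fold lower level (-1.24 ± 0.075, adjusted p = 4.7e-08). For both genes the NTC libraries lay apart from the libraries labelled DOX by more than the replicates differed. Dnmt3b had 110 and 116 against 237 and 255 CPM, a 2.17-fold higher level (1.12 ± 0.066, adjusted p = 3.7e-08). Dnmt3l (120 and 123 against 96.5 and 92.1, log2 fold change -0.36, adjusted p = 0.00064) and Dnmt3a (124 and 121 against 101 and 102, -0.26, adjusted p = 0.0049) fell. Dnmt1 (335 and 337 against 307 and 294, -0.16, adjusted p = 0.039) lost its call when any library was left out (adjusted p = 0.0663 to 0.254). Uhrf1 (290 and 308 against 341 and 350, 0.21, adjusted p = 0.012) lost it without NTC replicate 1 (adjusted p = 0.131) and without DOX replicate 2 (adjusted p = 0.0663). Without DOX replicate 2, the column with the differing header, the log2 fold changes of Tet2, Tet1 and Dnmt3b were -2.02, -1.31 and 1.07. Tet3, at 12.3 and 11.2 against 11.5 and 10.8 CPM, overlapped.

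Markers of cell identity moved widely in the same libraries. In the ESC identity list 7 of 8 genes fell, and its sum went from 4488 to 4575 CPM in NTC to 2751 to 2865 CPM. The primed epiblast list rose in 4 of 6 tested genes (115.7 to 119.1 CPM against 154 to 157 CPM, Cer1 at 0). In the trophectoderm list 6 of 7 tested genes rose, its sum going from 251 to 258 CPM to 1007 to 1081 CPM. The 2-cell-like list fell in 4 of 5 (25.8 to 27.1 CPM against 12.0 to 12.6 CPM), and the primitive endoderm list had 1 higher and 1 lower of 6 (7.85 to 9.49 CPM against 20.8 to 21.7 CPM). The part of these shifts in the member changes was not tested, and Rybp itself was not higher in the libraries labelled DOX.

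**Figure D3:**
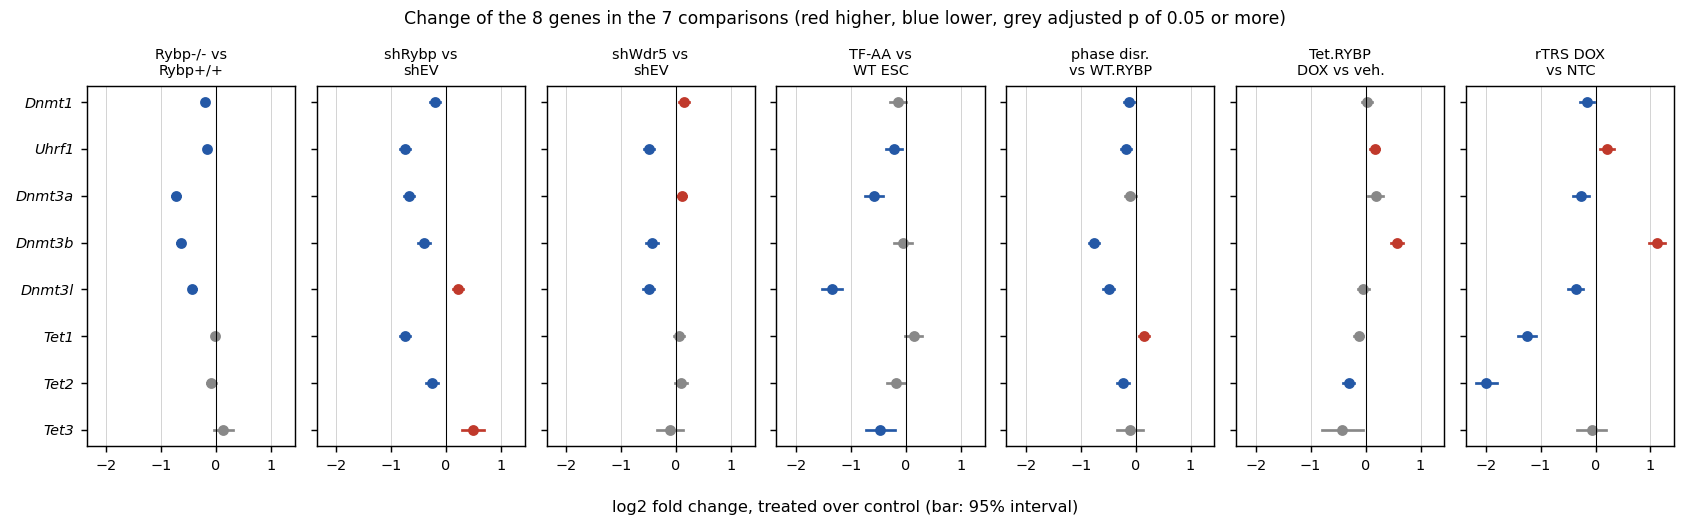
Log2 fold change, treated over control, of the members in the RNA comparisons, with 95% intervals from edgeR as bars; red points passed as higher, blue points as lower, and grey points had an adjusted p of 0.05 or more. The lowest value is Tet2 in rTRS (-1.99) and the highest is Dnmt3b in rTRS (1.12), the libraries labelled DOX being those in which Rybp was not raised.

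Read by gene over the 7 comparisons, Uhrf1 passed in all of them, lower in 5 and higher in 2, while Tet3 passed in 2. As given above, some of these calls rested on single libraries, among them Uhrf1 in TF-AA, Tet on.RYBP and rTRS and Tet3 in TF-AA. Dnmt1 was lower in 4 and higher in 1, and Tet1 lower in 2 and higher in 1. Dnmt3l was lower in 5 and higher in 1, Dnmt3a lower in 4 and higher in 1, and Dnmt3b lower in 4 and higher in 2. Tet2 passed in 4 comparisons, each time lower. Comparisons that share shEV are not independent, and the lines differ. As a description over 24 libraries of 6 tables (all but shWdr5, which shares shEV), each centred on its table's mean, log CPM of Dnmt1 and Dnmt3a moved together (Pearson r = 0.90, and 0.92 over the 20 libraries without rTRS). The value for Tet1 and Tet2 was 0.87, but 0.43 without rTRS. Dnmt3b had -0.60 with Tet2 and -0.51 with Tet1, which turned to 0.24 and 0.11 without rTRS, so that these negative values rest on that table. Leaving it out was chosen after the data were seen. Over the same libraries and 13255 genes, the transcripts most like Tet1 were Fblim1 (0.98), Metap2 and Esrrb (0.96 each). Those most like Tet2 were Enox1 (0.97, and 0.68 without rTRS) and Epas1 (0.96, and 0.88 without). Dnmt3b was most like Eif4b and Zic2 (0.94 each), and Uhrf1 most like Cdc25a and Grb7 (0.96 each). Dnmt3a was most like Bahcc1 (0.95), Dnmt1 most like Nup62 (0.95) and Dnmt3l most like Mif4gd (0.93). Tet3 had no close match, the nearest being Vgf (0.84). The points share library, depth and treatment, so no test was made.

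Genes that act with the members were then counted. The maintenance list holds partners and guards of methylation, among them the remodeller activator Cdca7, the ligase Lig1, Usp7, the corepressor Trim28 and Dppa3, which keeps UHRF1 from chromatin. Of its 8 genes 6 fell in Rybp-/- (median log2 fold change -0.13), led by Cdca7, from 246 CPM in both libraries to 173 and 175 (-0.50, adjusted p = 3e-14). In shRybp 7 fell and 1 rose (median -0.55): Trim28 went from 4484 and 4588 to 2485 and 2490 CPM (-0.87), while Dppa3 rose, from 0.505 and 1.11 to 3.40 and 3.41 (2.08). In phase disruption also 7 fell and 1 rose, Dppa3 going from 28.2 and 30.0 to 57.6 and 59.9 CPM (1.01). The counts were 5 lower and 1 higher in shWdr5 and in rTRS, while 3 fell in TF-AA and 1 in Tet on.RYBP. Among all genes the share that fell was 22.7% in Rybp-/-, 26.0% in shRybp, 31.5% in shWdr5, 16.1% in TF-AA, 17.0% in phase disruption, 2.39% in Tet on.RYBP and 20.4% in rTRS, and the share that rose was 22.8%, 26.8%, 31.5%, 14.4%, 16.1%, 3.63% and 23.0%.

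The TET partner list holds genes of oxidised-base repair and TET binding, such as Tdg, Gadd45g, Cxxc4, Cxxc5, Hmces and Prdm14. In Rybp-/- 8 of 15 tested genes fell (median -0.13), Gadd45g most, from 59.2 and 59.6 to 27.1 and 28.1 CPM (log2 fold change -1.11). In 5 other comparisons the list moved both ways, with 5 higher and 6 lower of 16 in shRybp, 5 and 5 of 16 in shWdr5, 3 and 5 of 14 in phase disruption, 1 and 4 of 14 in TF-AA and 2 and 3 of 16 in rTRS. The shares in shRybp (31.2% higher and 37.5% lower) and shWdr5 (31.2% each way) lay near the background of 26.8% and 26.0%, and of 31.5% each way. In Tet on.RYBP edgeR and DESeq2 each called 0 of 15, with 3 at an unadjusted p under 0.05 by edgeR. DESeq2 called fewer genes in some lists, 2 of the TET partners in TF-AA against 5 by edgeR, 3 readers in phase disruption against 6, and 0 of the maintenance list in Tet on.RYBP against 1. Of the marker lists it called 2 trophectoderm genes in TF-AA against 4, and 3 primitive endoderm genes in shWdr5 against 5. Hmces was the lowest in rTRS, from 106 and 107 to 41.1 and 38.0 CPM (-1.43). In the methyl donor and 2-oxoglutarate list, which holds the methionine cycle and Idh2, 4 of 8 fell and 2 rose in Rybp-/- and in rTRS, 6 fell and 1 rose in shRybp, 1 fell and 2 rose in shWdr5, 2 fell in TF-AA and in phase disruption, and 1 rose in Tet on.RYBP. Mat2a, which makes S-adenosylmethionine, fell in rTRS from 326 and 334 to 171 and 180 CPM (-0.91). Among 10 methyl-CpG readers 4 rose and 1 fell in Rybp-/-, 3 and 2 in shRybp, 6 and 2 in shWdr5, 3 and 1 in TF-AA and 2 and 4 in phase disruption, while 1 fell in Tet on.RYBP. In rTRS 3 of the 10 readers rose and 1 fell (median 0.11), near the shares of all genes (23.0% and 20.4%). The one that fell was Zfp57, which keeps imprints methylated, from 189 and 182 to 84.4 and 79.7 CPM (-1.18).

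Of listed germline genes whose promoters are known to be silenced by DNA methylation, some also by variant PRC1, most rose in 5 comparisons and most fell in rTRS. Among all tested genes 14.4% (TF-AA) to 31.5% (shWdr5) rose in those 5 comparisons, and 20.4% fell in rTRS. In Rybp-/- 9 of 11 tested genes rose with a median log2 fold change of 1.56 and a sum going from 67.4 to 70.0 CPM to 176 to 183 CPM. Sycp1, of the synaptonemal complex, went from 0.954 and 0.708 to 6.18 and 6.69 CPM (2.95). In shRybp 8 of 12 rose and 1 fell (median 0.83), with Taf7l going from 3.89 and 4.46 to 22.9 and 21.7 CPM (2.42). All 11 tested genes rose in phase disruption (median 1.48), as did 9 of 11 in TF-AA (2.36) and 9 of 11 in shWdr5, where 1 fell. In rTRS, by contrast, 7 of 12 fell and 1 rose (median -0.60). In Tet on.RYBP 0 of 10 were called by either tool (4 at an unadjusted p under 0.05 by edgeR), and the sums were 50.1 to 56.5 CPM with vehicle and 60.2 to 65.5 CPM with DOX. DNA methylation itself was not measured in these data, and all genes' medians stayed between -0.01 and 0.02.

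Chromatin at the 8 loci was read from peak lists, of which 10 carry peak names of merged files and 4 come from a single library, so that each condition is 1 list and no difference between lists was tested. All members had an H3K4me3 peak within 2.5 kb of an annotated transcript start in both Rybp+/+ and Rybp-/- cells, as did 67.9% and 68.1% of 22337 protein-coding genes. In Rybp+/+ the strongest was that of Dnmt1, with 64.4-fold enrichment, above 99.2% of all peaks in the list. In Rybp-/- the strongest was Dnmt3a, at 73.4-fold against 45.5-fold in Rybp+/+. Dnmt3b likewise had 38.1-fold in Rybp+/+ and 64.1-fold in Rybp-/-, and Tet1 27.1-fold and 56.2-fold, while Dnmt3l (20.8 and 21.2) and Uhrf1 (26.0 and 26.3) were alike. Tet2 had 49.0-fold and 56.9-fold, whereas Dnmt1 had the lower value in Rybp-/- (55.8-fold), as did Tet3 (23.8-fold and 21.4-fold). The median of the lists was 7.53 and 7.97. The RNA of Dnmt3a and Dnmt3b was lower in the same Rybp-/- cells.

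In Rybp-/- cells the H3K4me3 peaks at these loci were fewer and covered less sequence. There were 43 peaks over 80.3 kb in Rybp+/+ and 32 over 66.6 kb in Rybp-/-. The whole lists held 39050 peaks over 59158 kb and 38013 over 56798 kb. The mean fold enrichment per covered base was 20.8 and 31.9, against 27.9 and 29.1 for the whole lists. Of the 43 peaks 11 (25.6%) had no overlapping peak in Rybp-/-, against 14.5% of all peaks, and of these Tet1 and Tet2 held 5 each. All 11 were weak, at 2.78 to 5.17-fold, below the list median of 7.53. In the reverse direction 1 of 32 (3.12%) had none, against 10.6% of all peaks.

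The strongest mark did not always lie at the annotated gene start. At Tet1 the strongest H3K4me3 peak was chr10:62344193-62356527 in Rybp+/+, 12335 bases wide and centred 11506 bases inside the gene, while the peak at the start had 2.83-fold enrichment and no H3K4me3 peak was called there in Rybp-/-. Peaks of other factors lay inside that broad peak, in lists from different cells. They were WDR5 in both R7.15 lists, RING1B in R1 shEV (chr10:62349563-62349962, 3.24-fold) and STAT3 in rTRS with DOX (chr10:62349652-62350117, 3.36-fold). The RING1B and STAT3 peaks named here stood at percentile 11.0 and 15.3 of their lists, and the WDR5 peaks at 6.24 to 30.3. No RING1B peak was called at Tet1 in the other RING1B lists. Whether these factors share the site in the same cells was not tested. At Dnmt3a H3K4me3 was strongest at the long start (chr12:3805875-3809134 in Rybp+/+), whereas H3K27ac was strongest at chr12:3890849-3893390, centred 86112 bases inside the gene over an annotated internal start. At Dnmt3l the strongest H3K4me3 peak in Rybp+/+ was chr10:77511610-77518023, centred 10124 bases inside the gene, with 20.8-fold enrichment against 14.5-fold at the start, and the strongest H3K27ac peak was centred 8549 bases inside (19.9-fold), both over an annotated internal start.

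H3K27ac, a mark of active promoters and enhancers, lay at all 8 promoters in both conditions (51.7% and 54.9% of genes). At the 8 loci there were 92 peaks over 190.3 kb in Rybp+/+ and 109 over 163 kb in Rybp-/-. Of the former 26 (28.3%) had no overlapping peak in the other list, against 28.7% of all peaks, and of the latter 18 (16.5%), against 29.3%. Tet1 and Tet2 had the widest coverage. At Tet1 it covered 69.4 kb with a mean of 15.9-fold per base in Rybp+/+ and 56.9 kb with 11.8-fold in Rybp-/-. Tet2 had 41.0 kb with 24.0-fold and 36.0 kb with 13.5-fold, and its promoter peak was 33.3-fold in the former and 16.4-fold in the latter. These regions are unlike, since the Rybp+/+ peak is 15798 bases wide and reaches far into the gene, whereas the promoter peak of Rybp-/- is 4493 bases wide. The whole lists had means of 13.8 and 11.7 per base, so the Tet2 locus stood above the list by less in Rybp-/-, while its RNA did not pass the test. Tet3 carried the weakest promoter peak, at 2.52-fold and 3.69-fold. Dnmt3b and Dnmt3a, in spite of strong H3K4me3, had H3K27ac of only 5.70 and 7.23-fold in Rybp+/+ and 6.43 and 8.78-fold in Rybp-/-.

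**Figure D4:**
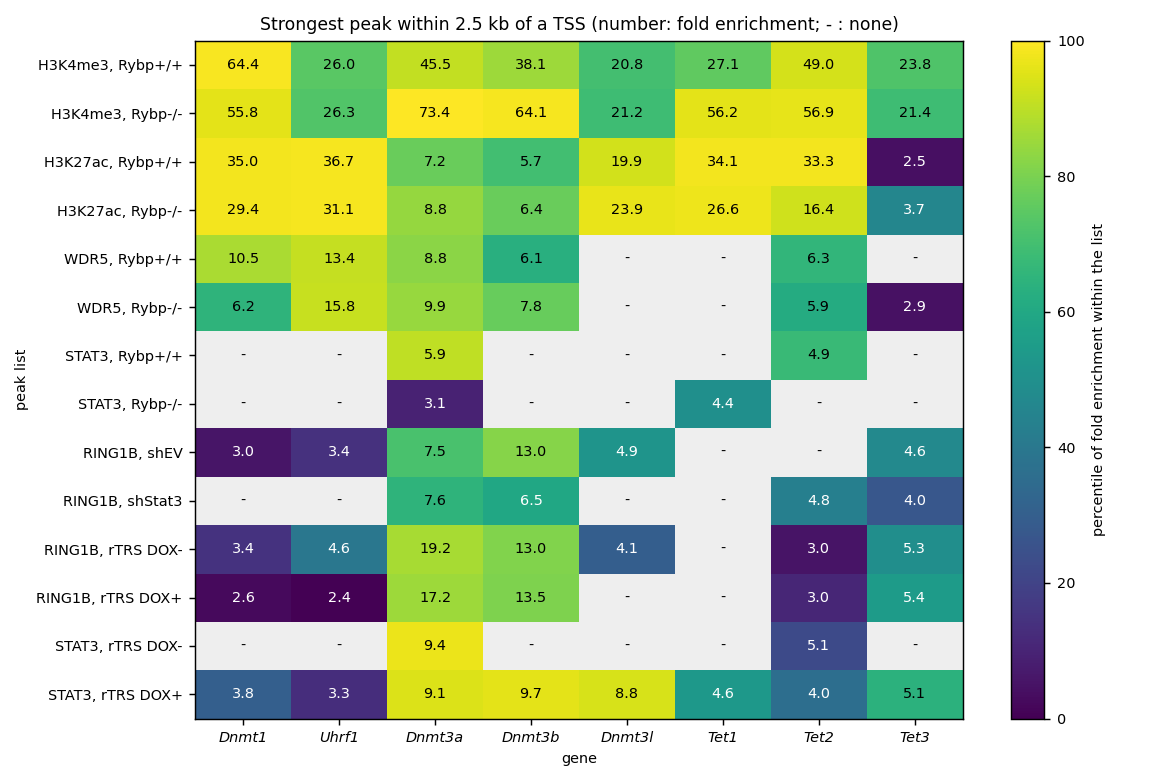
Fold enrichment of the strongest peak within 2.5 kb of an annotated transcript start for each member (columns) in each of the 14 peak lists (rows), coloured by its percentile within the list, with a dash where no peak was called. H3K4me3 and H3K27ac have a value for every member, whereas STAT3 has 2 members in 3 of its lists and all 8 in the rTRS DOX+ list.

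WDR5 peaks lay at the promoters of Dnmt1, Dnmt3a, Dnmt3b, Uhrf1 and Tet2 in Rybp+/+ (5 of 8, against 46.9% of genes), and of Tet3 as well in Rybp-/- (6 of 8, 49.3%). Uhrf1 had the strongest, 13.4-fold and 15.8-fold, and Dnmt1 had 10.5-fold and 6.19-fold. Dnmt3b also held an intronic WDR5 peak centred 11463 bases inside the gene, at chr2:153486430-153486868 with 5.04-fold enrichment in Rybp+/+ and at chr2:153486396-153487057 with 9.93-fold in Rybp-/-, where the promoter peak had 6.09-fold and 7.75-fold. This intronic site differs from the promoter in sequence, and its central 300 bases in the Rybp-/- list, with CG in capitals, held 2 CG on the plus strand.
Dnmt3b intron, chr2:153486577-153486876: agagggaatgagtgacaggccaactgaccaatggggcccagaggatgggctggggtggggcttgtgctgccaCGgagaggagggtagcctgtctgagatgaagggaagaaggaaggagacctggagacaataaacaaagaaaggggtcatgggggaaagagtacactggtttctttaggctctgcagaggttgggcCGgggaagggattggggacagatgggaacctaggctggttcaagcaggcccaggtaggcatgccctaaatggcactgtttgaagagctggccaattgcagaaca

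An H3K27ac peak overlapped that stretch in 1 of the 2 lists, that of Rybp-/- cells, and no H3K4me3 or RING1B peak did. Tet1 held WDR5 peaks only in an intron, centred 11789 to 12738 bases from the start, at 3.14 and 3.98-fold in Rybp+/+ and at 4.12-fold in Rybp-/-. No WDR5 peak was called at Dnmt3l in either list, both of which come from R7.15 cells. Its RNA fell in shWdr5 cells, which are of the R1 line, and any link was not tested.

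RING1B, the catalytic subunit of PRC1, was mapped in shEV and shStat3 cells and in the rTRS line. The lists reached down to a −log10 q of 1.01 to 1.04, so they held weak peaks. With a −log10 q of at least 2, the members with a promoter peak numbered 5 in shEV (43.1% of genes), 4 in shStat3 (39.9%), 7 in rTRS without DOX (53.5%) and 4 with DOX (40.4%), Dnmt1 being lost in shEV and Dnmt1 and Uhrf1 with DOX. Within 1 kb of a start, in place of 2.5 kb, Dnmt3l was lost in shEV and in rTRS without DOX, which left 5 and 6 members (44.7% and 53.6% of genes). All other counts are of the lists as deposited. In shEV it had promoter peaks at 6 of 8 members, all but Tet1 and Tet2, where 46.0% of genes had one, and in shStat3 at 4 of 8, where 41.6% did. Dnmt3b had the strongest of the members in shEV, 13.0-fold, and 6.52-fold in shStat3, and Dnmt3a had 7.54 and 7.65-fold. Of these 2 lists, promoter peaks of 3.04 to 4.87-fold at Dnmt1, Uhrf1 and Dnmt3l were called in shEV only, and a peak of 4.76-fold at Tet2 in shStat3 only. Of the 10 shEV peaks at the 8 loci 5 had no overlapping shStat3 peak, against 25.4% of all peaks, and in the reverse direction 1 of 6 (16.7%) had none, against 11.7%. In rTRS cells 7 of 8 members had a RING1B promoter peak without DOX (54.8% of genes) and 6 of 8 with DOX (42.0%). Dnmt3a had 19.2 and 17.2-fold and Dnmt3b 13.0 and 13.5-fold, while Uhrf1 had 4.59 and 2.35-fold. Tet1 had no RING1B promoter peak in any of the 4 lists, and Tet3 had a further RING1B peak in an intron, 19014 to 19159 bases from the nearest annotated start, in all 4.

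STAT3 was called at few members except in the rTRS line with DOX. In Rybp+/+ cells Dnmt3a (5.93-fold) and Tet2 (4.86-fold) had a promoter peak, 2 of 8 where 7.79% of genes had one. In Rybp-/- cells Dnmt3a (3.12-fold) and Tet1 (4.40-fold) did, where 6.57% of genes had one. Without DOX the rTRS list again held Dnmt3a (9.37-fold) and Tet2 (5.13-fold), against 9.04% of genes. With DOX all 8 members had a STAT3 promoter peak, against 57.6% of genes (7, without Tet1, and 55.7% within 1 kb of a start), and the list itself grew from 2816 to 30663 peaks. Dnmt3b (9.69-fold), Dnmt3a (9.14-fold) and Dnmt3l (8.81-fold) were above 95.9%, 94.8% and 94.0% of that list, and Uhrf1 was lowest at 3.25-fold. Of the 22 peaks at the 8 loci in that list 20 (90.9%) had no overlapping peak without DOX, as did 93.6% of all peaks.

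**Figure D5:**
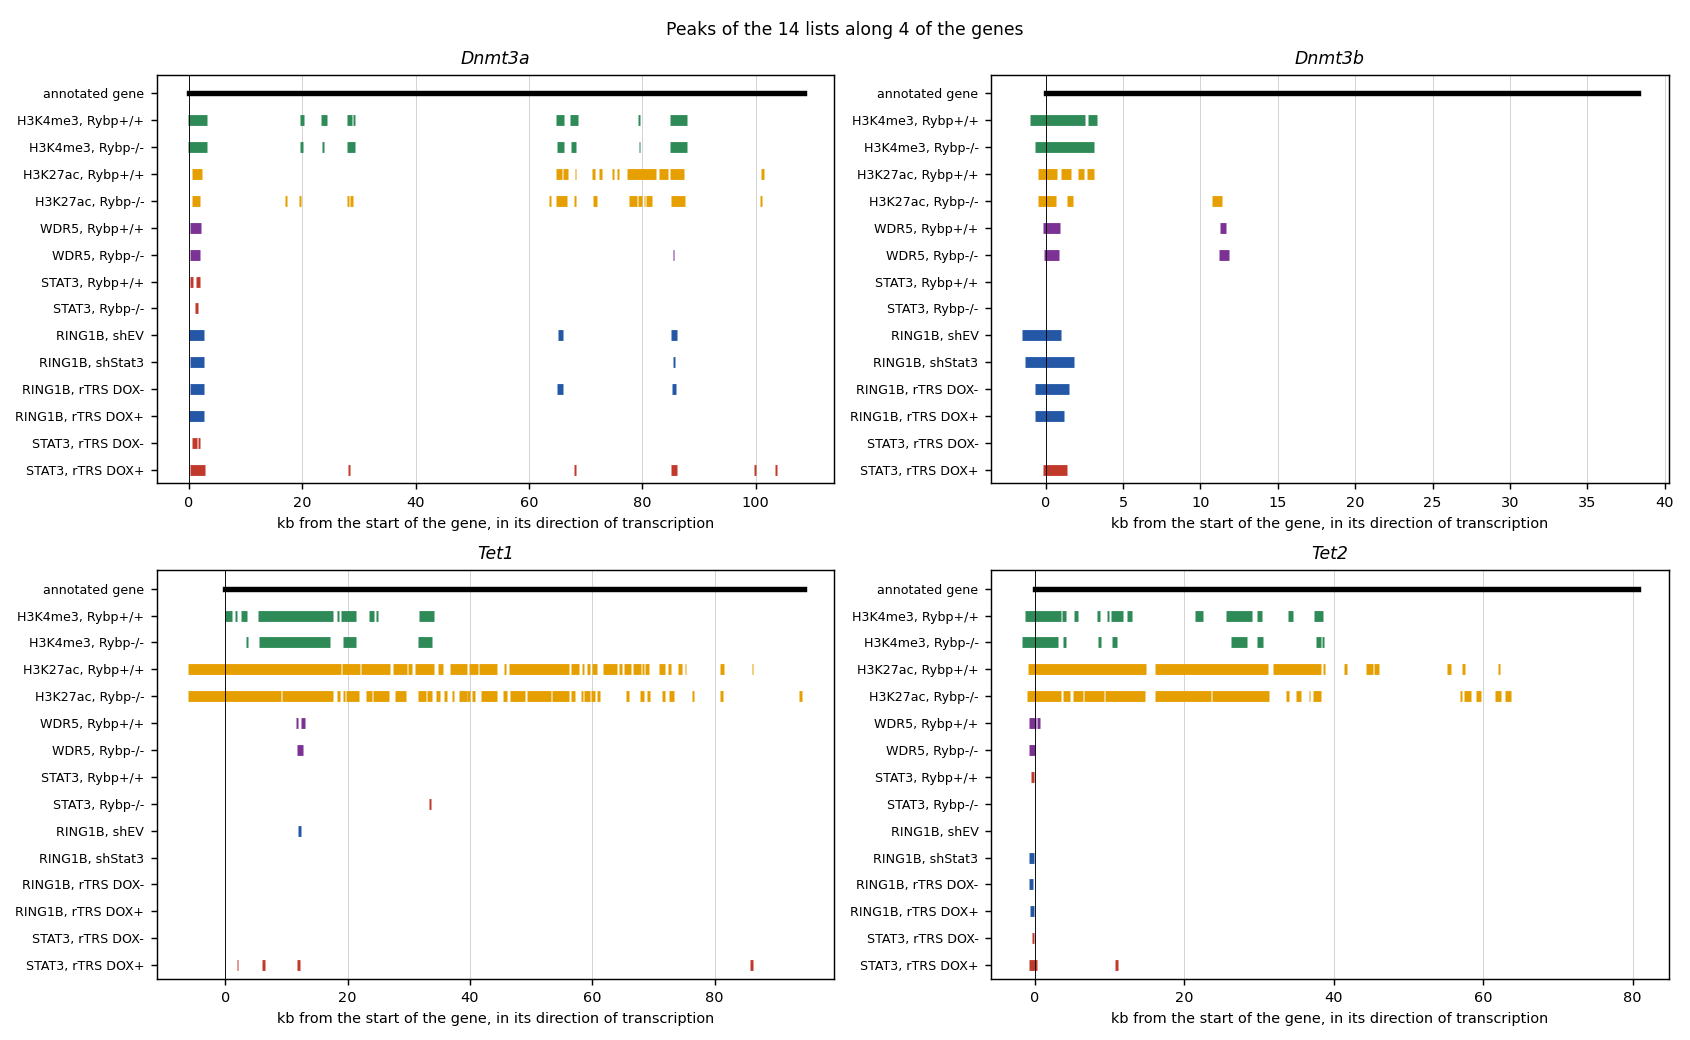
Peaks of the 14 lists drawn along Dnmt3a, Dnmt3b, Tet1 and Tet2, as distance in kb from the annotated gene start in the direction of transcription; each bar is 1 peak and the black bar the annotated gene. H3K27ac covers 69.4 kb at Tet1 and 41.0 kb at Tet2 in Rybp+/+, and the Dnmt3b intron holds the WDR5 peaks of 5.04 and 9.93-fold.

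The STAT consensus TTCNNNGAA, which reads the same on both strands, was searched in the central 300 bases of the STAT3 peaks. It was found in 5.88% and 5.01% of all peaks in Rybp+/+ and Rybp-/- and in 5.29% and 5.96% without and with DOX in rTRS, and in 7.94% of promoters of the same length. At the members it was in 3 of 22 peaks with DOX, once in Dnmt3a (TTCTGGGAA) and in Tet1 as TTCTCAGAA and TTCCTGGAA, and in 0 of 3, 0 of 2 and 0 of 4 peaks of the other lists. The Tet1 peak with the last of these lay in an intron and had 4.88-fold enrichment. It is shown on the minus strand with the match in capitals, as an example of a match. Any link to the RNA of Tet1 was not tested.
Tet1 intron, chr10:62355523-62355822: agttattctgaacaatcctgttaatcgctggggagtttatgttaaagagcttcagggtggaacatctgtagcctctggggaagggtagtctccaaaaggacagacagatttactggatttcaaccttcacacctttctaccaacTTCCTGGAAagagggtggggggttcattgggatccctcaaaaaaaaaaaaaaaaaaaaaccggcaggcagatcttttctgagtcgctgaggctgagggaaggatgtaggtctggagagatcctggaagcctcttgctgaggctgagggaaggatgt

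A match is a description of the sequence only, and the lack of one says that these letters are not in the window.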

How the data were processed

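RNA-seq of 26 libraries and 14 ChIP-seq peak lists were used. The authors trimmed RNA reads with Trim_galore 0.6.6, aligned them to mm9 with STAR 2.6.1b and deposited raw counts per Ensembl gene from htseq-count 2.0.1, with a gene length in 6 of the 7 tables. For ChIP-seq, the authors used Bowtie2 2.3.5.1, SAMtools 1.3.1 and MACS2 2.1.1 and deposited, for each peak, a fold enrichment over control and a −log10 q. The methods state that samtools merge joined the alignments of replicates, but not whether peaks were called on the result. The peak names of 10 lists name merged files, so the lists cannot give an error. Peak names of the STAT3 lists and the rTRS lists also hold the word sampled, which the sources used here do not explain. The pipeline of the libraries that the methods do not cover is not given in the sources used here. Rows outside genes (13.7% to 58.5% of counts, in the tables that have such rows) were left out. Replicate libraries differed by more than sampling noise (chi-square per degree of freedom 2.21 to 15.3), so none was counted as 1 sample.

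Each table was fitted alone with edgeR 4.0.16 in R 4.3.3 (filterByExpr, TMM, quasi-likelihood test), with p-values adjusted by the Benjamini-Hochberg method over all tested genes. CPM are TMM-scaled, and RPKM use the deposited lengths, those of the other tables serving for the Tet on.RYBP table, whose control columns are headed NTC and were taken as the vehicle libraries. DESeq2 1.42.0, other scalings, no filter, a replicate block and leaving out each library were the alternatives. The procedure was tested on simulated data in which 200 genes were changed, 100 of them 1.5-fold and 100 of them 2-fold. Of those changed 1.5-fold, 57% to 76% were recovered over the comparisons. Among all calls, 3.14% (shWdr5) to 9.22% (Rybp-/-) were of unchanged genes. In the data 6.02% (Tet on.RYBP) to 63.0% (shWdr5) of tested genes were called, far more than were changed in the simulation, so these rates may not hold there. A peak was given to a promoter within 2.5 kb of any annotated transcript start, with 1 kb, 5 kb and a −log10 q of at least 2 as alternatives. The named genes are the 8 members, the targeted genes and, in each list, those with the highest and lowest passing change where a list is described. The members and lists were chosen with earlier results of these data known. Same-numbered libraries did not deviate together (correlations -0.02 to 0.07). Further ChIP-seq samples of the series were not analysed here.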

Additional observations from a re-analysis of the deposited data

Results flagged for a closer look

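Dnmt3l moved in opposite directions in the comparisons that lower Rybp. In Rybp-/- against Rybp+/+ its log2 fold change was -0.43, with both Rybp-/- libraries below both control libraries, and in shRybp against shEV it was 0.22, with both shRybp libraries above both shEV libraries. The comparisons differ in cell line and in how Rybp was lowered, and the difference between them was not tested.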

How the results depend on the processing

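Of 504 refitted member fold changes, 462 kept direction and side of the threshold, 29 lost their call, 9 gained one and 4 changed sign. The sign changes were of small values: Tet1 in Rybp-/- was 0.0071 with total counts alone, Tet3 in shWdr5 ranged from -0.27 to 0.049, Dnmt1 in Tet on.RYBP from -0.0048 to 0.071 and Dnmt3l there from -0.081 to 0.0026 when 1 library was left out. With 1 library left out, members called ranged from 3 to 5 in shWdr5, 2 to 5 in TF-AA and 2 to 5 in Tet on.RYBP, and genes called from 2724 to 4767 in TF-AA (4412 with all) and 406 to 1566 in Tet on.RYBP (899 with all). DESeq2 called 2980 genes in phase disruption against 4814 by edgeR. Total counts alone moved the share of higher calls from 50.8% to 71.2% in shRybp and from 48.7% to 61.7% in phase disruption. With the replicate block, whose numbers did not pair the libraries, genes called were 7724 in Rybp-/-, 9110 in shRybp, 9865 in shWdr5, 5525 in TF-AA, 5172 in phase disruption, 1211 in Tet on.RYBP and 8559 in rTRS, and members called were 5, 8, 5, 6, 6, 3 and 7. Without the rTRS table, an alternative chosen after seeing the data, Pearson r of Dnmt3b turned from -0.60 to 0.24 with Tet2 and from -0.51 to 0.11 with Tet1. The causes were not tested. Tet3, at 198 counts in its lowest library, had the lowest counts of the members and the largest standard error in every comparison.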
